A study of Rattus norvegicus with 33 samples.

Results

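The subject is 10 genes of granulocytes in rat dorsal root ganglion (DRG): Prg2, RatNP-3b, Defa5, Rnase3, S100a8, S100a9, Mpo, Camp, Elane and Slpi. They were chosen by name, with their values on these arrays known, as genes of granule proteins or of their inhibitor, and each was read from 1 probe of an Illumina rat bead array, whose 22523 probes name 13337 genes. Of the 10, 8 passed the detection filter, which kept the 12029 probes whose detection p-value was below 0.05 on 75% or more of a group's arrays, for any of the 9 groups. S100a9 was detected on 0 of 33 arrays and Elane on 1. The filter keeps a gene through the group where it is high, so counts over the 8 describe these 8 and not all 10.

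The DRG holds the cell bodies of sensory neurons with their satellite glia, and the study asked how this tissue responds to an absorbable collagen sponge (ACS) that carries rhBMP-2, a recombinant human bone morphogenetic protein used in spinal fusion. All rats were Sasco/Sprague-Dawley and 13 weeks old, and all had the same surgery. They received rhBMP-2/ACS, a sponge with vehicle only (vehicle/ACS), or no sponge, and the ganglia were taken at 1, 3 or 7 days post surgery (dps), with 4 arrays per group at 1 and 7 dps and 3 at 3 dps. No sponge rats therefore carry the effects of surgery and are not untreated, and the RNA sent for arrays was the best of what was extracted. The ganglion was ipsilateral for sponge rats, and the same side is assumed here for no sponge rats. The no sponge arrays at 7 dps are not described in the study's text, so that 1 rat per array is also assumed for them.

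Granulocytes make their granule proteins mostly while they mature in bone marrow and carry them in granules through the blood to the tissue. Neutrophil granules hold myeloperoxidase, serine proteases, defensins and cathelicidin, which kill microbes. Eosinophil granules hold major basic protein and ribonucleases. Mature cells keep little RNA for many of these proteins, so this RNA is used as a mark of young granulocytes. In a bulk sample, fewer cells of a type and less RNA per cell cannot be told apart.

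Between 10142 and 11674 probes were detected per array, and arrays of a group correlated at 0.989 or more over all probes. The tissue label was borne out by 12 of 13 sensory neuron markers, which were detected on every array, and the probe of Calca was detected on 0. Of 21 genes of neutrophil receptors and signalling on the array, 3 were detected on all 33 arrays, 4 on none and 14 on some. Ptafr, Alox5ap and Fcer1g were those on all, Tlr2 and Fcgr3a were detected on 32 and Itgam on 22, whereas Cxcr2 and Fpr1 were detected on 0 and Csf3r on 2. Of 25 other granule proteins, 9 were detected on all arrays, 3 on none and 13 on some. Lcn2 and Cd63 were detected on all 33, Prtn3 on 24, Np4 on 23, Mmp9 on 22 and Ngp on 17, against 4 for Mmp8, 3 for Ctsg and 0 for Ltf and Defa9.

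The stretches just before the transcription starts of RatNP-3b, Rnase3 and Camp are shown here as those of 3 granule genes that were detected, since late granulocyte genes are known to be read under the factors C/EBP, PU.1 and RUNX. Capitals mark the core letters of those factors. They are the 150 bases before the RefSeq start, 5′ to 3′ on the strand of the gene, from build GRCr8: RatNP-3b at chr16:77248978-77249127 on the minus strand, Rnase3 at chr15:26986270-26986419 on the minus strand and Camp at chr8:118721999-118722148 on the minus strand.
RatNP-3b: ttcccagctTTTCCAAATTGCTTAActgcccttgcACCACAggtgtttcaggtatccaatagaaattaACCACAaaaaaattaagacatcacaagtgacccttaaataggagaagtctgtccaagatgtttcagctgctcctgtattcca
Rnase3: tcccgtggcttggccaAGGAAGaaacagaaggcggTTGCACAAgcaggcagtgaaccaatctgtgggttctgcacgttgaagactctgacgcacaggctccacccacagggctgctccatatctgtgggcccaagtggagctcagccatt
Camp: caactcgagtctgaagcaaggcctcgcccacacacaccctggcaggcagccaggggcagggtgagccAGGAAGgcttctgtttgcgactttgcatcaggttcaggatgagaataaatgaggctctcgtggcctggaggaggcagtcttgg

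RefSeq promoters were at hand for 5 of the 10 genes, the others being Mpo and S100a9. In the 250 bases before the start, searched on both strands, the C/EBP core TTNNGNAA was present in RatNP-3b, Rnase3, Mpo and S100a9, and in 37.2% of all 33469 rat promoters. The PU.1 core AGGAAG was present in Camp, Mpo and Rnase3, and in 29.5% of all promoters. The RUNX core TGTGGT was present in RatNP-3b and S100a9, and in 14.5% of all promoters. In RatNP-3b 2 C/EBP matches lie side by side, 141 to 134 and 133 to 126 bases before the start, and no match overlaps another. These matches describe letters and are not binding sites. S100a9 has letters of the same kind although its probe was at background on all arrays.

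The neutrophil defensins RatNP-3b and Defa5 were among the widest-ranging of the 10. On the log2 scale of normalized intensity, RatNP-3b ran from 4.99 to 10.34 over the 33 arrays with a median of 6.97, a 40.8-fold range. Defa5 ran from 4.72 to 10.04 with a median of 7.09, a 39.8-fold range. Their genes lie in a cluster on chromosome 16 with 7 coding genes between them, all defensins, and a probe of one may also read another, so the levels of single defensins are uncertain. S100a8, a calcium-binding protein abundant in neutrophil cytoplasm, ran from 5.17 to 10.15, a 31.5-fold range, and was detected on all 33 arrays. Its partner S100a9 stayed between 4.36 and 4.89 and was never detected, although the genes are neighbours with 0 coding genes between them and their proteins form a pair. Whether the probe of S100a9 reads that gene could not be checked.

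Prg2, the eosinophil major basic protein, was detected on all 33 arrays and ran from 5.11 to 8.83, a 13.2-fold range. Rnase3, an eosinophil ribonuclease, was detected on 19 arrays and ran from 4.47 to 8.01. The primary granule enzyme Mpo was detected on 15 arrays and ran from 4.58 to 6.61. Camp, the cathelicidin of secondary granules, was detected on 23 and ran from 4.56 to 6.61. Elane, neutrophil elastase, reached 5.45 on the 1 array that detected it, rhBMP-2/ACS at 7 dps, replicate 3. Slpi, a secreted inhibitor of elastase that epithelia and other cells also make, was detected on all 33 arrays and ran from 5.25 to 9.94, a 25.8-fold range. The plot of log2 intensity by group gives each of these values.

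**Figure D1:**
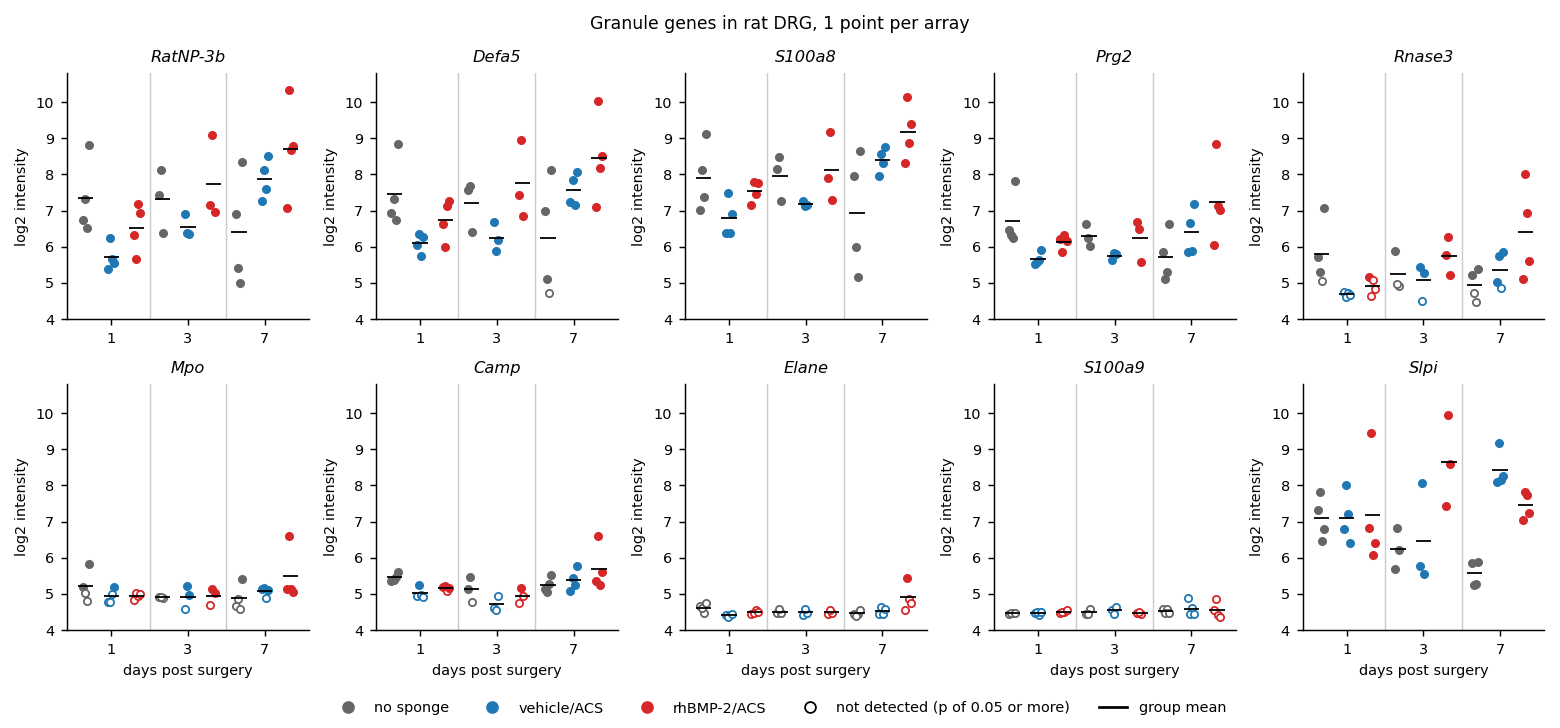
Log2 normalized intensity (vertical axis) of the 10 granule genes by days post surgery and treatment (horizontal axis, left to right no sponge, vehicle/ACS and rhBMP-2/ACS at each time), with 1 point per array, open where not detected, and a bar at the group mean. RatNP-3b, Defa5, S100a8, Prg2, Rnase3, Mpo and Camp all have their highest point in rhBMP-2/ACS at 7 dps, replicate 3, while S100a9 stays at background and Slpi follows another order.

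Correlation from array to array was closest among RatNP-3b, Defa5, S100a8, Prg2 and Rnase3, lower for Mpo and Camp and lowest for Slpi. RatNP-3b and Defa5 correlated at r = 0.970 over the 33 arrays, and at 0.974 once each group's mean was removed. Defa5 and S100a8 correlated at 0.947, RatNP-3b and S100a8 at 0.938, and the eosinophil pair Prg2 and Rnase3 at 0.897. Prg2 was also close to the neutrophil defensins, at 0.883 with Defa5 and 0.853 with RatNP-3b. The 10 pairs among these 5 genes ran from 0.732 to 0.970, and from 0.638 to 0.957 without the 2 arrays of highest mean. The 11 pairs of Mpo or Camp with these genes and each other ran from 0.609 to 0.782, and from 0.372 to 0.607 without those arrays. Slpi correlated with the other 7 at 0.175 to 0.448, and at 0.083 to 0.381 without them, so that the ranges of Slpi and of Mpo and Camp then meet. These are descriptions over arrays that share groups, and cross-reading between defensin probes can raise the first value.

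One array stood apart. The library rhBMP-2/ACS at 7 dps, replicate 3, held the highest of 33 values for 7 of the 8 genes, all but Slpi, while it held the highest value for 3.54% of all 12029 probes. There Rnase3 was 5.31-fold above the median of the other 3 arrays of its group, Defa5 3.62-fold, Prg2 3.54-fold, RatNP-3b 3.18-fold, Mpo 2.75-fold, S100a8 2.43-fold and Camp 2.38-fold, against 1.49-fold for Slpi. Next in order of the mean of the 8 came rhBMP-2/ACS at 3 dps, replicate 3, and no sponge at 1 dps, replicate 4. The lowest were no sponge at 7 dps, replicates 2 and 3, and then 3 arrays of vehicle/ACS at 1 dps. High and low arrays thus occurred within the same group, as the map of arrays in order of the mean shows.

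**Figure D2:**
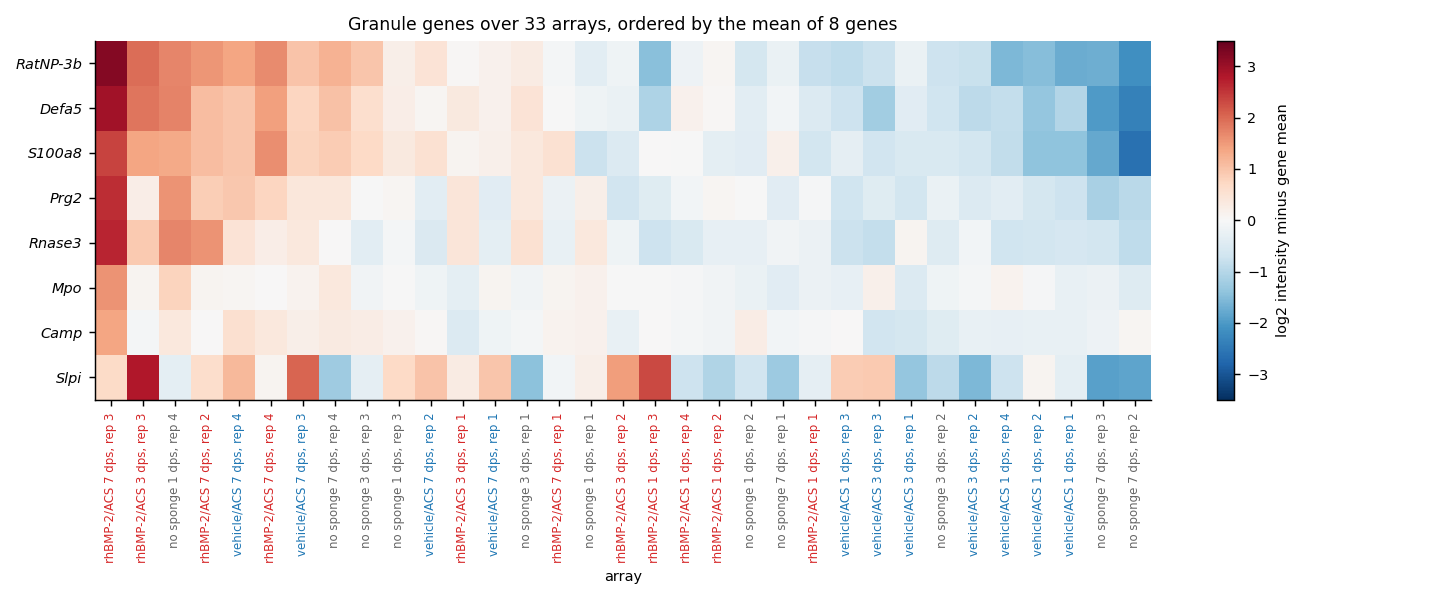
Log2 intensity of the 8 detected granule genes (rows) on 33 arrays (columns), each gene shown as its difference from its own mean (colour scale in log2 units) and arrays ordered by the mean of the 8, with labels coloured by treatment. The first column is rhBMP-2/ACS at 7 dps, replicate 3, and the last is no sponge at 7 dps, replicate 2. Slpi is not at its highest in the first column.

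Markers of other cell types were also detected on that array, which had 11656 probes detected, near the highest count of 11674. Epx and Mcpt8, markers of eosinophils and basophils, Cma1 of mast cells, Car1 of erythroid cells and Gp9 of platelets were detected on it and on none of the other 32. Their levels there were 5.18, 5.69, 5.27, 5.20 and 5.20, where the lowest detected level was 4.89. They were named for being detected there alone, and the share of all probes detected there alone was not counted. Of the same lists Fcer1a, Ms4a2, Tpsab1, Tpsb2, Gata1, Rhag and Hbe1 were detected on 0 arrays. It detected 12 of 22 eosinophil, basophil and mast cell genes, against 3 to 11 on the others, and 9 of 14 erythroid genes, against 3 to 8. It detected 17 of 18 cell cycle genes, against 6 to 17, 7 of 9 skeletal muscle genes, against 3 to 7, and 4 of 11 B cell and precursor genes, against 2 to 5. Among other granule proteins it detected 21 of 25, against 10 to 20. Hbb, a beta globin, was at 13.74 there, its highest of 33, with a median of 12.61. Results that rest on this array are given below with and without it, and the part of these cell types in them was not tested.

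The 10 genes whose pattern over the 33 arrays was most like the mean of the 8 were Np4, Retnlg, Ngp, Fcnb, Pglyrp1, Ahsp, Ceacam4, Fcna, Prg3 and Lypd8l1, with r from 0.889 for Np4 to 0.737 for Lypd8l1. Np4 is a defensin of the same cluster, Ngp is a protein of neutrophil granules, Pglyrp1 is a peptidoglycan-binding protein of neutrophil granules, and Prg3 is a homologue of Prg2. Ahsp, which stabilizes alpha haemoglobin in red cell precursors, came sixth at r = 0.792. All 10 were highest on rhBMP-2/ACS at 7 dps, replicate 3. The mean of the 8, each centred on its own mean, was also highest there, at 2.17 against 1.15 on the next array. That the 10 were highest there thus follows in part from how they were chosen. Without the 2 arrays of highest mean, r was 0.825 for Np4, 0.772 for Ngp, 0.738 for Ahsp and 0.571 for Lypd8l1.

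At 1 dps the means of 7 of the 8 granule genes, all but Slpi, were lower with vehicle/ACS than with no sponge. RatNP-3b was 6.75, 6.52, 7.34 and 8.83 on the no sponge arrays and 5.39, 5.65, 6.25 and 5.54 on the vehicle/ACS arrays. Defa5 was 6.95, 6.74, 7.32 and 8.83 with no sponge and 6.06, 5.75, 6.37 and 6.27 with vehicle/ACS. Prg2 was 6.47, 6.25, 6.34 and 7.82 with no sponge and 5.52, 5.64, 5.57 and 5.90 with vehicle/ACS. For each of these genes the highest vehicle/ACS array lay below the lowest no sponge array.

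The differences, vehicle/ACS minus no sponge, were -1.65 for RatNP-3b (SE 0.62), -1.35 for Defa5 (SE 0.58), -1.06 for Prg2 (SE 0.40) and -0.43 for Camp (SE 0.20), with n = 4 in each group. Without no sponge replicate 4 they were -1.16, -0.89, -0.70 and -0.38. Rnase3 was detected on 0 of the 4 vehicle/ACS arrays and on 3 of the 4 no sponge arrays. With the vehicle/ACS arrays set at their lowest detected level, its mean was 1.64-fold higher with no sponge, and 1.22-fold without that array. The no sponge array that did not detect it was taken at its own value, so these are not strict lower bounds. With Rnase3, 5 of the 8 genes did not overlap, all lower with vehicle/ACS. Of all probes tested 1.25% were lower and 1.36% higher without overlap. The median over the 8 genes was -1.08, against 0.00 over all probes, and -0.68 without no sponge replicate 4. The genes were chosen with these arrays known, so no p is given for them here or below. For S100a8 the groups overlapped, since vehicle/ACS replicate 3, at 7.48, lay above the lowest no sponge array, at 7.02. Mpo overlapped too, with a difference of -0.28 (SE 0.24), and of -0.07 without no sponge replicate 4. The summed level of the 7 tested erythroid genes ran from 11.99 to 13.33 on the vehicle/ACS arrays and from 12.48 to 13.50 on the no sponge arrays. Limma called 0 of the 7 in all 9 comparisons of treatments. In this comparison it called 0 of all 12029 probes, so that 0 is no result about these genes. At an unadjusted limma p under 0.05 were 1 of the 7 and 414 of all probes. The part of erythroid cells in the differences was not tested. Slpi did not take part, with means of 7.10 ± 0.60 and 7.11 ± 0.69 (SD, n = 4).

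At 1 dps rhBMP-2/ACS lay between those groups. RatNP-3b was 6.32, 7.19, 5.65 and 6.95 with rhBMP-2/ACS, which overlaps vehicle/ACS below and no sponge above. The median over the 8 was 0.35 for rhBMP-2/ACS minus vehicle/ACS and -0.48 for rhBMP-2/ACS minus no sponge. None of the 8 stood clear of vehicle/ACS, where 1.32% of probes were higher and 1.46% lower without overlap. Against no sponge only Camp did, lower by 0.29 (SE 0.20), where 2.12% of probes were lower and 2.07% higher without overlap. The comparisons of a time point share their groups and are not independent of each other.

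At 3 dps, 3 of the 8 genes were higher with rhBMP-2/ACS than with vehicle/ACS without overlap, and 0 were lower. Of all probes 10.6% were higher and 12.2% lower without overlap. RatNP-3b was 7.16, 6.97 and 9.08 with rhBMP-2/ACS and 6.91, 6.36 and 6.39 with vehicle/ACS. Defa5 was 7.44, 6.86 and 8.95 with rhBMP-2/ACS and 6.70, 6.18 and 5.88 with vehicle/ACS. S100a8 was 7.89, 7.30 and 9.16 with rhBMP-2/ACS and 7.26, 7.15 and 7.12 with vehicle/ACS. In all 3 the gap between the nearest arrays was small and the third rhBMP-2/ACS array was far above the others. The study also measured S100a8 by QPCR, and reported no induction with rhBMP-2/ACS over vehicle/ACS at any time.

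The log2 differences were 1.19 for RatNP-3b (SE 0.71) and 0.94 for S100a8 (SE 0.61), and Defa5 was 2.84-fold higher (SE 0.67 on the log2 scale), with n = 3 in each group. Without rhBMP-2/ACS replicate 3 the log2 differences were 0.51 for RatNP-3b, 0.42 for S100a8 and 0.90 for Defa5. The median over the 8 was 0.81 with that array and 0.42 without it. Mpo, near background, differed by 0.04, and Camp was detected on 1 of the 3 rhBMP-2/ACS arrays and on 0 of the 3 vehicle/ACS arrays. Slpi had the largest mean difference of the 8, 2.20 (SE 0.65), with 7.44, 8.59 and 9.94 with rhBMP-2/ACS and 5.77, 5.55 and 8.06 with vehicle/ACS. Its groups overlapped through vehicle/ACS replicate 3. The summed level of the 13 macrophage and monocyte genes also differed, from 11.32 to 12.12 with rhBMP-2/ACS and from 10.23 to 11.08 with vehicle/ACS, and the summed erythroid level from 13.20 to 13.89 against 11.83 to 13.13. The part of either in these differences was not tested.

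Against no sponge at 3 dps the 7 genes other than Slpi did not show one direction. The median over the 8 was 0.29 for rhBMP-2/ACS and turned to -0.12 without its replicate 3. For vehicle/ACS it was -0.49, and Prg2 alone did not overlap, lower by 0.55 (SE 0.46), where 7.79% of all probes were lower and 7.16% higher without overlap. Slpi was higher with rhBMP-2/ACS than on all no sponge arrays, which were at 5.70, 6.23 and 6.82. That is a difference of 2.41 (SE 0.65) or 5.31-fold, and of 1.77 without rhBMP-2/ACS replicate 3, and 9.88% of all probes were higher and 12.4% lower without overlap there.

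At 7 dps the means of all 8 genes were higher with either sponge than with no sponge, but for 7 of them the groups overlapped. RatNP-3b was 6.91, 4.99, 5.42 and 8.35 with no sponge, 7.27, 7.60, 8.14 and 8.50 with vehicle/ACS, and 7.06, 8.67, 10.34 and 8.78 with rhBMP-2/ACS. S100a8 was 7.95, 5.17, 6.00 and 8.66 with no sponge, 7.96, 8.32, 8.57 and 8.76 with vehicle/ACS, and 8.31, 8.87, 10.15 and 9.40 with rhBMP-2/ACS. Prg2 was 5.85, 5.31, 5.11 and 6.64 with no sponge, 5.87, 5.89, 6.65 and 7.20 with vehicle/ACS, and 6.04, 7.13, 8.83 and 7.01 with rhBMP-2/ACS. The no sponge rats were widely spread, and their replicate 4 reached into both sponge groups.

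Against no sponge, the median over the 8 at 7 dps was 1.01 for vehicle/ACS and 1.71 for rhBMP-2/ACS, and 1.34 for the latter without its replicate 3. For rhBMP-2/ACS the differences were 2.30 for RatNP-3b (SE 0.62), 2.22 for Defa5 (SE 0.58) and 2.23 for S100a8 (SE 0.52), and 1.76, 1.69 and 1.91 without that array. Between the sponges the median was 0.81, higher with rhBMP-2/ACS, and 0.31 without that array, which moves the value by over 1.5 times. The differences of the 7 genes other than Slpi ran from 0.31 for Camp to 1.04 for Rnase3 (SE 0.43). All 7 overlapped between the sponges. Without the array Rnase3 was at 0.51, Camp at 0.01 and Mpo at 0.04. The summed erythroid level ran from 12.36 to 13.97 with vehicle/ACS and from 12.81 to 14.23 with rhBMP-2/ACS, the last value on that array.

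Slpi alone separated the groups at 7 dps. It was 5.87, 5.28, 5.25 and 5.89 with no sponge, 8.10, 8.15, 9.18 and 8.27 with vehicle/ACS, and 7.04, 7.75, 7.81 and 7.24 with rhBMP-2/ACS. Vehicle/ACS was above no sponge by 2.85 (SE 0.56), 7.22-fold, where 8.47% of all probes were higher and 8.61% lower without overlap. The rhBMP-2/ACS group was above no sponge by 1.89 (SE 0.56), 3.70-fold, where 6.23% were higher and 6.06% lower. It was below vehicle/ACS by 0.96 (SE 0.56), where 1.76% were lower and 1.59% higher. The 13 macrophage and monocyte genes had the same order of summed levels, 10.60 to 10.78 with no sponge, 11.76 to 12.13 with vehicle/ACS and 11.37 to 11.64 with rhBMP-2/ACS, and their part in Slpi's level was not tested. The mean order of the other 7 granule genes between the sponges was the opposite, and the plot of differences shows Slpi on the other side of 0 from them at 7 dps.

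**Figure D3:**
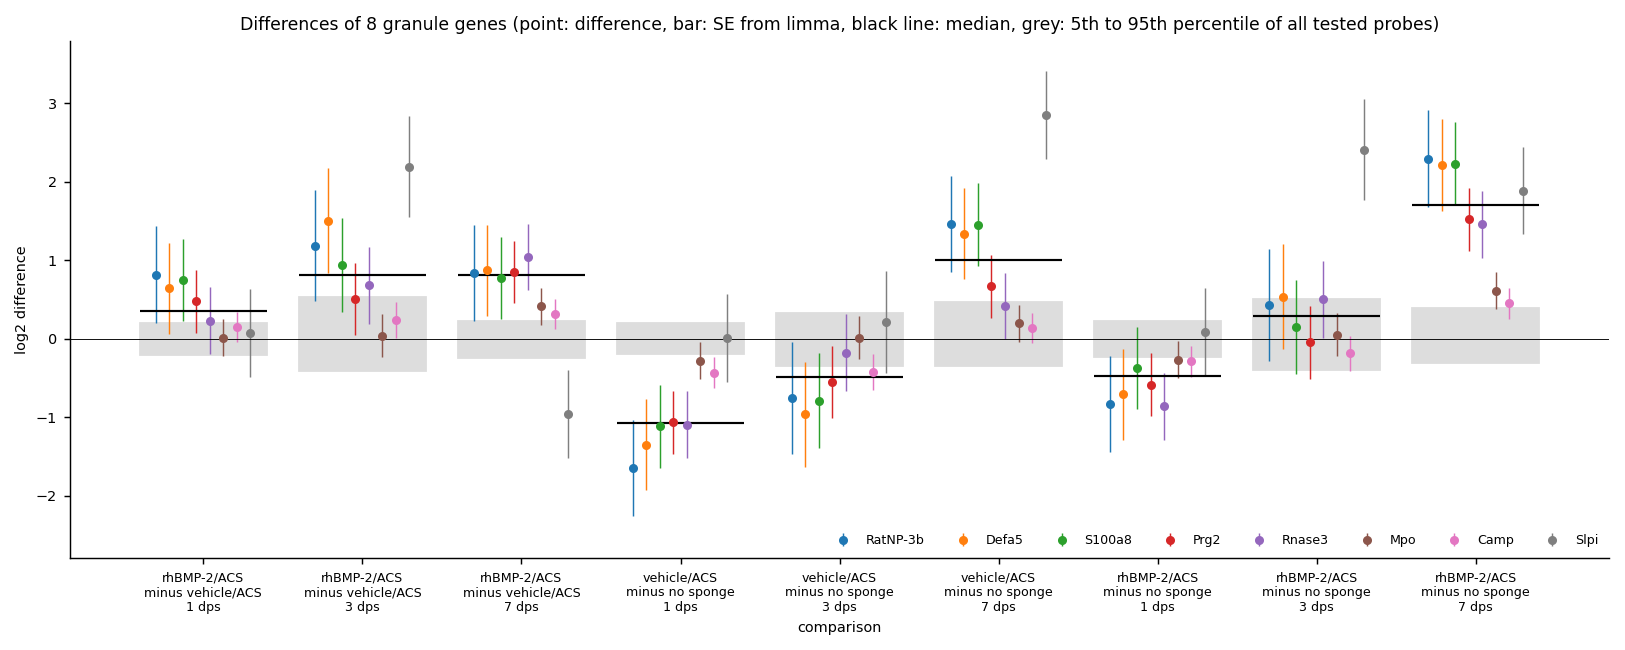
Log2 difference (vertical axis, point) with its standard error from limma (bar) of the 8 detected granule genes in each of the 9 comparisons (horizontal axis), with the median of the 8 as a black line and the 5th to 95th percentile of all 12029 probes as a grey box. The medians are -1.08 for vehicle/ACS minus no sponge at 1 dps and 1.71 for rhBMP-2/ACS minus no sponge at 7 dps, and Slpi lies at -0.96 for rhBMP-2/ACS minus vehicle/ACS at 7 dps.

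Over the mean of the 3 treatments, the median of the 8 differed by 0.11 between 3 and 1 dps and by 0.37 between 7 and 1 dps. The arrays of each time point carry a set of sample codes of their own and no label names an array run, so time and the handling of the arrays cannot be told apart for 3 or 7 against 1 dps.

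Other genes linked to granulocytes were taken from lists of granule proteins, neutrophil receptors, the phagocyte oxidase and attractants. Eosinophil, basophil and mast cell genes and progenitor factors were listed as well. Of 94 such genes on the array 51 were tested. Being on a list does not show that a gene's RNA came from granulocytes, and its source was not tested. Pf4 was also on the platelet list. By list, median r with the mean of the detected granule genes ran from -0.02 for progenitor factors to 0.40 for the oxidase. It was 0.32 for granule proteins, against 0.51 for cell cycle genes, 0.44 for macrophage and monocyte genes and -0.03 for all named genes. Here limma was fitted to all probes, with Benjamini-Hochberg adjustment within a comparison and a threshold of 0.05. The lists were chosen with earlier results of these data known, so a count above the share of all probes is not independent support. At 3 dps, 14 of the 51 rose and 1 fell with rhBMP-2/ACS over vehicle/ACS, where 5.98% of all probes rose and 4.59% fell. For vehicle/ACS against no sponge at 7 dps 13 rose and 0 fell (6.21% and 3.96% of all probes). For rhBMP-2/ACS against no sponge 9 rose at 3 dps, where 4.21% of all probes rose and 3.32% fell, and 10 at 7 dps, where 2.54% rose and 1.04% fell, and 0 of the 51 fell at either time. In the other 5 comparisons limma called 0 of the 51. At an unadjusted limma p under 0.05 there were 2 to 10 of the 51. For rhBMP-2/ACS minus vehicle/ACS these were 2 at 1 dps and 10 at 7 dps, against 457 and 779 of all 12029 probes. For vehicle/ACS against no sponge they were 3 at 1 dps and 2 at 3 dps, against 414 and 1648. For rhBMP-2/ACS against no sponge at 1 dps they were 4, against 752. Of all probes limma called 0 in 4 of these 5 comparisons, and for vehicle/ACS against no sponge at 3 dps 0.166% rose and 0.175% fell.

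The genes that rose with rhBMP-2/ACS over vehicle/ACS at 3 dps were Chi3l1, Cd63, Ctsc, S100a11, Ptafr, Tlr2, Fcgr3a, Fcer1g, Cybb, Cyba, Ncf1, Rac2, Pf4 and Cebpb, and Kit, the receptor for stem cell factor, fell. Chi3l1, a chitinase-like protein, was 7.42, 7.33 and 8.97 with rhBMP-2/ACS and 5.80, 5.93 and 6.55 with vehicle/ACS, a difference of 1.81 (SE 0.33, limma adjusted p = 0.00095). Fcer1g, the shared gamma chain of Fc receptors, was 9.91, 10.10 and 10.95 against 8.05, 8.74 and 9.29, a difference of 1.63 (SE 0.29, limma adjusted p = 0.0009). The oxidase subunits Cyba and Cybb each rose by 0.95 (limma adjusted p = 0.0009 and 0.0016). Cybb was detected on 3 of 3 rhBMP-2/ACS arrays and on 1 of 3 vehicle/ACS arrays at 3 dps. It passed the detection filter through that rhBMP-2/ACS group alone, so its difference is taken against a level near background. Of 13 macrophage and monocyte genes, 7 rose in the same comparison, C1qa, C1qb and Cd14 among them, and the part of macrophages in these calls was not tested. Without rhBMP-2/ACS replicate 3 the 15 calls among the 51 came to 4, namely Chi3l1, Fcer1g, Cyba and Cybb, and the 9 calls against no sponge at the same time came to 1, S100a11.

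The genes that rose with vehicle/ACS over no sponge at 7 dps were Chi3l1, Cd63, Ctsc, Anxa1, S100a11, Arg1, Il1r2, Alox5ap, Fcgr3a, Fcer1g, Cyba, Ncf1 and Rac2. Fcer1g was 10.08, 10.52, 10.37 and 10.07 with vehicle/ACS and 8.73, 8.56, 9.03 and 9.01 with no sponge, a difference of 1.43 (SE 0.25, limma adjusted p = 0.00034). Anxa1, an annexin carried in neutrophil granules, rose by 0.77 (SE 0.11, limma adjusted p = 3.8e-05). Arg1, which makes ornithine from arginine, rose by 1.25 (SE 0.30, limma adjusted p = 0.0066). Of the macrophage and monocyte genes 9 of 13 rose there, and of 10 protease inhibitors other than Slpi 5 rose, namely Serpina3n, Serping1, A2m, Timp1 and Serpine2. The cell cycle genes rose in 13 of 16.

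Ngp, Pglyrp1 and Fcnb, whose pattern was close to that of the 8 genes, were called for rhBMP-2/ACS against no sponge at 7 dps and in no other of the 9 comparisons. On the 4 no sponge arrays there Ngp was detected on 2, Pglyrp1 on 1 and Fcnb on 0, so these differences are taken against levels near background. Pglyrp1 and Fcnb passed the detection filter only through the sponge groups at 7 dps, where they were high. Ngp was 6.00, 5.72, 7.21 and 6.57 with rhBMP-2/ACS and 5.47, 4.50, 4.44 and 5.70 with no sponge, a difference of 1.34 (SE 0.32, limma adjusted p = 0.013). With vehicle/ACS it was 5.64, 5.88, 5.83 and 5.80. Pglyrp1 was 5.09, 5.36, 6.36 and 5.63 with rhBMP-2/ACS and 5.02, 4.53, 4.65 and 4.90 with no sponge, a difference of 0.83 (SE 0.18, limma adjusted p = 0.0056). The remaining calls there were Cd63, Anxa1, Arg1, Il1r2, Fcer1g, Cyba and Rac2. Without rhBMP-2/ACS replicate 3 the count was 4 of 51, namely Cd63, Pglyrp1, Arg1 and Il1r2, and the limma adjusted p of Ngp was 0.10. The calls for vehicle/ACS and rhBMP-2/ACS at 7 dps share the no sponge arrays. Between the sponges limma called 0 of the 51 and 0 of all 12029 probes. At an unadjusted limma p under 0.05 were 10 of the 51 and 779 of all probes.

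**Figure D4:**
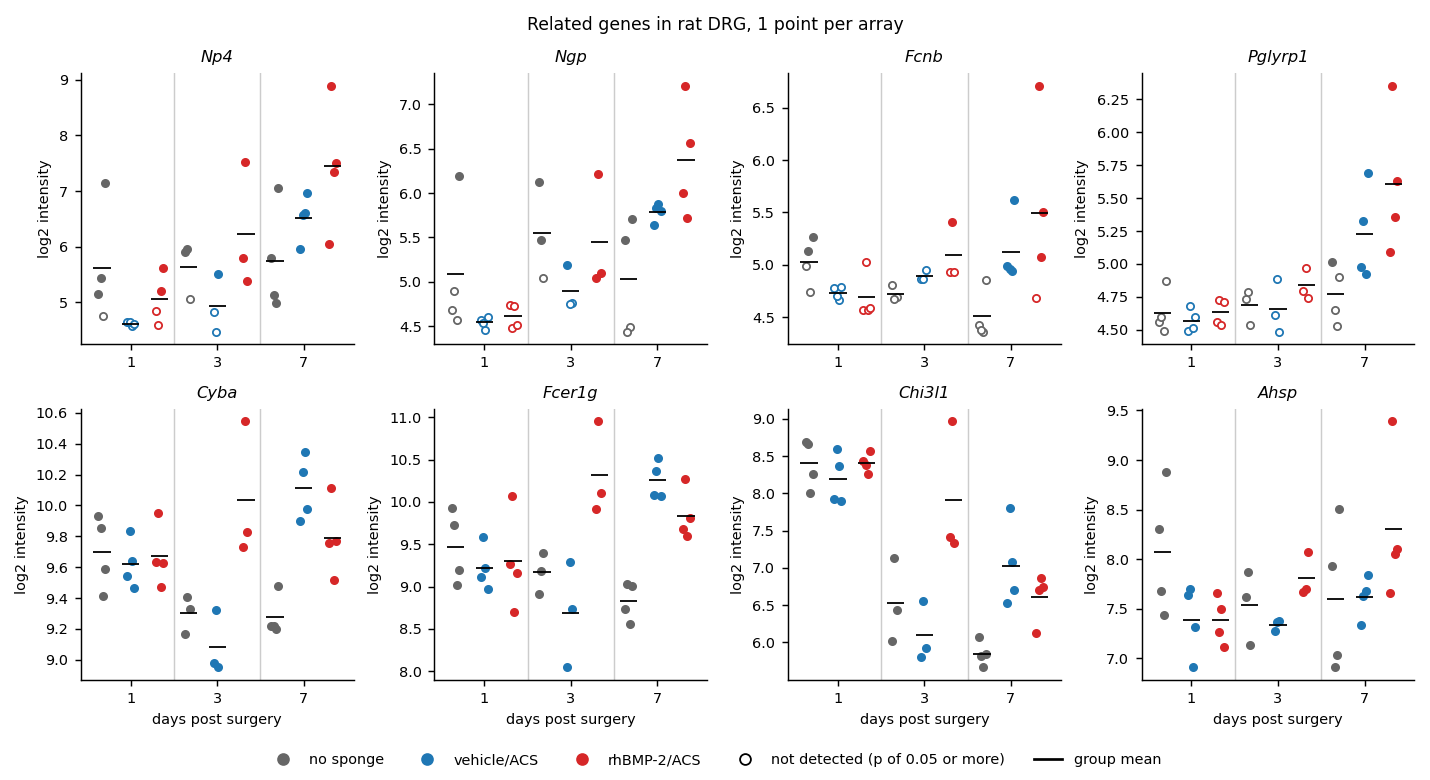
Log2 normalized intensity (vertical axis) of 8 related genes by days post surgery and treatment (horizontal axis, left to right no sponge, vehicle/ACS and rhBMP-2/ACS at each time), with 1 point per array, open where not detected, and a bar at the group mean. Np4, Ngp, Fcnb, Pglyrp1 and Ahsp have their highest point in rhBMP-2/ACS at 7 dps, replicate 3, whereas Cyba, Fcer1g and Chi3l1 have theirs in rhBMP-2/ACS at 3 dps, replicate 3.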

How the data were processed

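RNA of rat DRG was measured on 33 arrays in 9 groups, assigned from the labels. The authors exported the bead intensity of 22523 probes from GenomeStudio without normalization, and deposited beside each intensity a detection p-value. A second deposited table, normalized by the authors, served as an alternative. All 33 of its columns ranked best with their own intensities. Intensities were background corrected with limma's neqc (offset 16, controls inferred from detection p-values) and quantile normalized, and the resulting values, computed from the deposited intensities, are on a log2 scale. The 9 groups were modelled in R 4.3.3 with limma 3.58.1 (lmFit, eBayes with trend). The fit was tested on simulated data. Gene symbols came from the platform annotation, with 13793 probes carrying 1 symbol and 8730 none. Promoters came from RefSeq.

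The members and the 15 gene lists were chosen with earlier results of these data known, so members are described without a test. Genes were named as all members, up to 4 called genes of a list with the lowest p, and the 10 most similar by correlation; genes listed in full beside their count, those detected only on one array, and markers at or near background were named after their values were seen. A gene undetected on a whole group was set at the lowest level detected on each array, or its own level where higher. Each array is taken as RNA of 1 rat. Alternatives were another offset, no background correction, the authors' table, equal medians, other detection filters, array weights, compared groups alone, the study's thresholds, a replicate block and each array left out.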

Additional observations from a re-analysis of the deposited data

Results flagged for a closer look

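In groups of 4, a single array lay outside Dixon's 95% limit for 4 of the 48 sets of values of the granule genes, and in 11 of 222 sets with the related genes included, where chance gives about 1 in 20. Prg2 was 7.82 on no sponge at 1 dps, replicate 4, against 6.25 to 6.47 on the others of its group. Mpo was 6.61 on rhBMP-2/ACS at 7 dps, replicate 3, against 5.07 to 5.15. Camp was 5.24 on vehicle/ACS at 1 dps, replicate 3, against 4.93 to 4.97. Slpi was 9.18 on vehicle/ACS at 7 dps, replicate 3, against 8.10 to 8.27.

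Among related genes, Fcnb stood apart on 3 arrays, at 5.02 on rhBMP-2/ACS at 1 dps, replicate 3, at 4.86 on no sponge at 7 dps, replicate 4, and at 5.62 on vehicle/ACS at 7 dps, replicate 4. It was detected on 0 arrays of rhBMP-2/ACS at 1 dps and of no sponge at 7 dps, so the values there are at background. Arg1 was 7.36 on rhBMP-2/ACS at 1 dps, replicate 3, where Slpi was also at 9.44. Anxa1 was 11.13 on vehicle/ACS at 1 dps, replicate 3, and Cyba was 9.48 on no sponge at 7 dps, replicate 4. Tlr2 was low at 5.40 on rhBMP-2/ACS at 7 dps, replicate 2.

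The effect of a treatment on the 51 related genes differed between time points by limma's test of the difference itself. For rhBMP-2/ACS minus vehicle/ACS it was greater at 3 than at 1 dps in 5 genes, Fcgr3a, Fcer1g, Cybb, Cyba and Rac2 (1.16% of all probes differed), and smaller at 7 than at 3 dps in 12 (6.92% of all probes). For vehicle/ACS minus no sponge it was greater at 7 than at 1 dps in 6 genes (2.98%) and greater at 7 than at 3 dps in 8 (3.74%). For rhBMP-2/ACS minus no sponge it was greater at 7 than at 1 dps in 1 gene, Arg1 (0.698%). Time and the handling of the arrays cannot be told apart in these differences, since each time point has sample codes of its own.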

How the results depend on the processing

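Of 55 medians of the granule genes, under other processing or with Slpi left out of the median, 53 moved by less than the spread between arrays. That spread was the SD within groups of the mean of the 8, which is a wide limit. At 7 dps this SD was 0.89 for rhBMP-2/ACS and 0.38 for vehicle/ACS, where the median between them was 0.81. A median can thus move far and still stay within it. Without background correction the median was 0.18 for rhBMP-2/ACS minus vehicle/ACS and -0.56 for vehicle/ACS minus no sponge, both at 1 dps. Of 90 counts of related genes, 83 stayed within 1.5 times. At 3 dps the count for rhBMP-2/ACS minus vehicle/ACS was 7 with quality weights on the arrays and 5 when those groups were fitted alone, and that for rhBMP-2/ACS minus no sponge was 0 when fitted alone. At the study's thresholds counts for rhBMP-2/ACS minus vehicle/ACS were 1 at 1 dps and 1 at 7 dps, and otherwise 1 for vehicle/ACS against no sponge at 1 dps and 2 for rhBMP-2/ACS against no sponge at 1 dps. The cause of these shifts was not tested.

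With each array left out in turn, the median over the granule genes ran for rhBMP-2/ACS minus vehicle/ACS from 0.32 to 0.45 (1 dps), from 0.42 to 1.15 (3 dps) and from 0.31 to 1.16 (7 dps). It ran for vehicle/ACS minus no sponge from -1.26 to -0.68, -0.65 to -0.34 and 0.68 to 1.47, and for rhBMP-2/ACS minus no sponge from -0.67 to -0.23, -0.12 to 0.67 and 1.34 to 1.98, at the same times. Between times it ran from -0.01 to 0.21 for 3 against 1 dps and 0.20 to 0.51 for 7 against 1 dps. The count of related genes ran at 3 dps from 4 to 17 for rhBMP-2/ACS minus vehicle/ACS, from 1 to 13 and 4 to 12 for rhBMP-2/ACS against no sponge at 3 and 7 dps, and 12 to 14 for vehicle/ACS against no sponge at 7 dps, and stayed at 0 elsewhere. Counts also moved by over 1.5 times without vehicle/ACS replicate 2 at 3 dps, to 9, without no sponge replicate 1 at 3 dps, to 3, and without no sponge replicates 2 or 3 at 7 dps, to 5 and 6.

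Replicate numbers are not stated to pair rats, and same-numbered arrays correlated at -0.181 to 0.244. With the replicate number as a block the counts were 16 for rhBMP-2/ACS minus vehicle/ACS at 3 dps, 15 for vehicle/ACS against no sponge at 7 dps, 12 for rhBMP-2/ACS against no sponge at both 3 and 7 dps, and 0 in the other comparisons. Signal over background limits Mpo, Rnase3 and Camp, and among related genes Cybb, Ngp, Pglyrp1 and Fcnb, which were undetected on many arrays.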

Other observations

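The median over the granule genes without Slpi, chosen after seeing the data, was 0.68 for rhBMP-2/ACS minus vehicle/ACS at 3 dps, 0.67 for vehicle/ACS minus no sponge at 7 dps and 1.52 for rhBMP-2/ACS minus no sponge at 7 dps. Of 12 sensory neuron genes tested by limma, Nefm, Snap25, Stmn2 and Uchl1 fell at 3 dps with rhBMP-2/ACS relative to vehicle/ACS. Of all probes 4.59% fell and 5.98% rose there. The 4 are the called genes of that list with the lowest p, and are not a count of its calls. All 4 calls were lost when medians were equalized in place of quantiles.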
